A study of Mus musculus with 8 samples.

Results

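The nuclear genes for the subunits of respiratory complexes II to V, with cytochrome c, were followed in mouse hearts that lack a conserved enhancer of Actn2 on 1 or both alleles. The members were the rows named Sdha, Sdhb, Sdhc, Sdhd, Cyc1 and Cycs, and all rows whose symbol begins with Uqcr, Cox4, Cox5, Cox6, Cox7, Cox8 or Atp5. This gave 49 of the 24516 genes in the count table: 4 of complex II, 9 of complex III, cytochrome c itself, 18 of complex IV and 17 of complex V. Of these, 48 had enough counts to be tested, among 15075 genes tested in all. The exception, Cox8c, a testis form of subunit 8, had 0 counts in all 8 libraries. Atp5s and Atp5sl carry the family prefix but are not core subunits of ATP synthase. The table held no gene of the mitochondrial genome, so the catalytic core of complex IV (its subunits 1 to 3), cytochrome b and ATP synthase subunits a and 8 are not described here.

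The hearts were of mice at postnatal day 40 and came from a single litter. They were wild type (WT, n = 2), heterozygous (HET, n = 3) or homozygous (HOMO, n = 3) for the enhancer deletion, which was made with CRISPR/Cas9 and is not tied by the labels to any cell type. The labels name no strain, founder line or sex, and no other allele or treatment. Apart from the shared litter, they do not say how the samples were taken, so the p-values measure only the spread between these samples. The study asked what loss of the enhancer does in the living heart.

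Oxidative phosphorylation moves electrons from NADH and succinate to oxygen and uses the resulting proton gradient to make ATP. Complex II (succinate dehydrogenase) also works in the citric acid cycle and is built from nuclear genes alone. Complex III passes electrons to cytochrome c, complex IV (cytochrome c oxidase) passes them on to oxygen, and complex V is the ATP synthase. Heart muscle is among the tissues richest in these complexes, and complex IV there carries heart-type forms of subunits 6A, 7A and 8 that replace the liver-type forms found in most other tissues.

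Libraries held 22230090 to 55902737 counts. WT 2 stood apart from the rest: on the first principal component, which held 42.5% of the variance, it lay at 98.7, WT 1 at 32.5 and the 6 deletion libraries between -24.1 and -16.7. Across genes, WT 1 and WT 2 correlated at r = 0.952, pairs of deletion libraries at 0.969 to 0.982, and WT 2 with the deletion libraries at 0.927 to 0.935. For the members described one by one, values against WT are therefore followed by those without WT 2 where its removal ended a call. Actn2 itself was at 2187 and 2703 CPM (counts scaled to a library of 1e+06) in WT 1 and 2, at 1693, 1546 and 1638 CPM in HET 1 to 3, and at 2115, 1611 and 1791 CPM in HOMO 1 to 3. By edgeR's quasi-likelihood test it was lower in HET (log2 fold change -0.59, adjusted p = 0.0193), and the HOMO difference of -0.41 did not pass (adjusted p = 0.0771). Without WT 2 the values were -0.40 (adjusted p = 0.125) and -0.22 (adjusted p = 0.422). The 8 markers of ventricular cardiomyocytes summed to 82900 to 95500 CPM in WT, 72800 to 75900 in HET and 72400 to 79500 in HOMO. All 8 were detected, and they did not share a direction. By the same test 2 were lower and 2 higher in HOMO, and 3 lower and 2 higher in HET. Of all genes tested, 12.4% were lower and 15.3% higher in HOMO, and 12.8% and 15.2% in HET.

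Promoter sequences were available from RefSeq (GRCm38.p6) for 38 of the 49 members. The 4 windows printed here are the 250 bases before the RefSeq start of the heart-type and liver-type genes for subunit 8, of Atp5g3, whose window is the only member window with the estrogen-related receptor (ERR) motif, and of Atp5e, which had the lowest fold change of any member in HOMO. Capitals mark the motif found in each, on either strand: an E-box (CAGCTG) in Cox8b, a CCAAT motif (CCAATC) in Cox8a, an ERR motif (TCAAGGTCA) in Atp5g3 and an ETS motif (CCGGAAG) in Atp5e.
Cox8b (chr7:140900447-140900696, minus strand): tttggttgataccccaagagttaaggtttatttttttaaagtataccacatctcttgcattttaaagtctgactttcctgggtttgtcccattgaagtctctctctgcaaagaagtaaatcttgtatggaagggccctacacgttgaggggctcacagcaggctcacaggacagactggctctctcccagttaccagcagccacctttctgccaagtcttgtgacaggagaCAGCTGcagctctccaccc
Cox8a (chr19:7217617-7217866, minus strand): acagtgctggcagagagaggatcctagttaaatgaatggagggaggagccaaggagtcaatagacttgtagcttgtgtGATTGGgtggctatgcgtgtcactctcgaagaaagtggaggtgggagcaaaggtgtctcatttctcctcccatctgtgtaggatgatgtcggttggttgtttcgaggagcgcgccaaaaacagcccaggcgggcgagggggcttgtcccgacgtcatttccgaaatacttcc
Atp5g3 (chr2:73911327-73911576, minus strand): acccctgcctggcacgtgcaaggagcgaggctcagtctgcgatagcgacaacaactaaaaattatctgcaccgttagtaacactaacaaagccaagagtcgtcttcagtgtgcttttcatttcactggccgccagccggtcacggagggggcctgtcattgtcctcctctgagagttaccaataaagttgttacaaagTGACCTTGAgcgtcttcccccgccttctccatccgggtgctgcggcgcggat
Atp5e (chr2:174464102-174464351, minus strand): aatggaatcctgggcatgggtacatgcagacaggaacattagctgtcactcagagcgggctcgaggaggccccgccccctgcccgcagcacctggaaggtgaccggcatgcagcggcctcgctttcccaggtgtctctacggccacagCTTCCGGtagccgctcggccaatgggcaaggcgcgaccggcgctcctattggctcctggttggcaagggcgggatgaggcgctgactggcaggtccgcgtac
The heart-type and liver-type windows of subunit 8 thus shared none of the motifs searched. Among the 42 member windows of 250 bases, the ETS motif stood in 21.4%, against 6.91% of all 32841 windows, and the core motif of NRF1 (GCATGCGC), a factor known for driving respiratory genes, in 14.3% against 2.26%. The NRF1 core was found before Sdhb, Cycs, Cox6a1, Atp5g2, Atp5k and Atp5l. The ERR motif stood in 2.38% of member windows against 0.387% of all windows, and the YY1 motif AAGATGGC in 4.76% (Atp5j and Atp5sl) against 1.56%. CCAATC was found in 16.7% against 14.6%, TATAAA in 4.76% (Atp5l and Cox7b2) against 12.4%, and the E-box in 4.76% (Atp5b and Cox8b) against 13%. These are matches of letters in a window and show no binding.

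As a group, transcripts of complexes III, IV and V were lower in the deletion hearts than in WT, and transcripts of complex II were not. Short genes as a class were lower too: below 1000 bases, the HOMO median log2 fold change was -0.66 for members and -0.62 for all genes. After the correction for gene properties described below, the medians in HOMO and HET were 0.13 and 0.05 for complex III. They were -0.04 and -0.16 for complex IV, -0.09 and -0.10 for complex V, and 0.34 and 0.295 for complex II. All 49 members together took 4.99% and 6.18% of the counts in WT 1 and 2, 4.28%, 3.996% and 4.07% in HET 1 to 3, and 4.20%, 4.11% and 4.30% in HOMO 1 to 3. Both WT libraries thus lay above all deletion libraries, with WT 2 the highest. For complex III the share was 0.863% and 1.03% in WT and 0.652% to 0.753% in the deletion libraries, for complex IV 1.26% and 1.92% against 0.917% to 1.10%, and for complex V 2.44% and 2.88% against 1.97% to 2.11%. For complex II the WT values of 0.352% and 0.293% lay within and below the 0.332% to 0.371% of the deletion libraries, and for Cycs both WT values, 0.0761% and 0.0546%, lay below the 0.0784% to 0.103% of the deletion libraries. In bulk tissue, fewer cells of a type and less RNA per cell cannot be told apart.

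**Figure D1:**
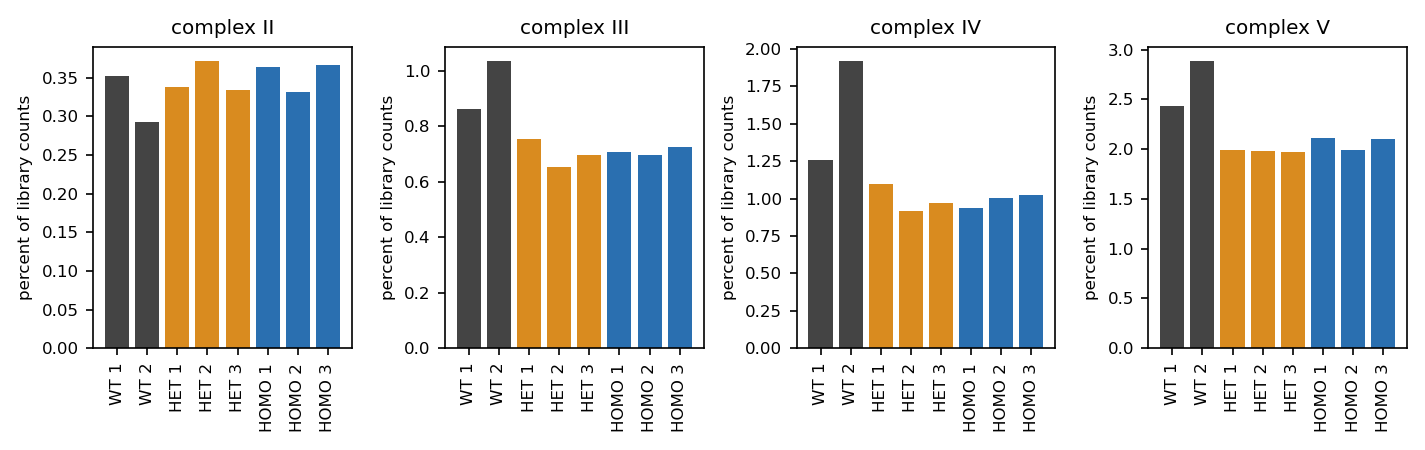
Share of each library's counts (percent, vertical axis from 0) taken by the members of complexes II, III, IV and V, with 1 bar per library (WT grey, HET orange, HOMO blue). In complexes III, IV and V both WT bars are above all 6 deletion bars and WT 2 is the highest, whereas in complex II WT 2 is the lowest bar.

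In HOMO against WT, 24 of 48 members were lower and 2 higher by edgeR's quasi-likelihood test at an adjusted p under 0.05, where 12.4% of all genes tested were lower and 15.3% higher. The members' median log2 fold change was -0.55, against -0.03 over all genes. By complex, 6 of 9 members of complex III were lower and 1 higher (median -0.69), 12 of 17 tested members of complex IV were lower (median -0.66), 6 of 17 members of complex V were lower (median -0.42), and in complex II none of 4 was lower and 1 was higher (median 0.16). In HET against WT, 22 of 48 members were lower and 2 higher, where 12.8% of all genes were lower and 15.2% higher. The HET median was -0.56, with 5 lower and 1 higher in complex III (median -0.62), 10 lower in complex IV (-0.67), 7 lower in complex V (-0.50) and 1 higher in complex II (0.12). Both comparisons use the same 2 WT libraries, and 20 members were called lower and 1 (Uqcrc2) higher in both. The share of all genes called in both was not counted, so this overlap does not set the members apart. Atp5sl, not a core subunit of ATP synthase, is among the lower members counted under complex V in each comparison. Both WT libraries exceeded all 6 deletion libraries for 22 members, where this held for 20.7% of all genes, and both lay below for 4 members (Sdha, Sdhd, Uqcrc2 and Cycs), where this held for 22.1%. Taking each comparison alone, all HOMO libraries were below both WT libraries for 29 members (27.2% of all genes) and above for those 4 (27.6%), and all HET libraries were below for 25 members (25.6%) and above for the same 4 (25.7%). DESeq2 called 30 members lower and 3 higher in HOMO, where it called 14.7% of all genes lower and 17.6% higher, and 28 lower and 4 higher in HET (15.1% and 17.7% of all genes).

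WT 2 carried more of these differences than WT 1. WT 2 was above all 6 deletion libraries for 40 members, including all 24 that fell in HOMO. WT 1 was above all 6 for 23 members, including 18 of those 24, and lay within the deletion range for 18 members. The shares of all genes with these positions of a single WT library were not counted. These counts therefore describe the members and do not set them apart from other genes. Between the WT libraries, 42 members were higher in WT 2 and 6 lower, with a median log2 difference of 0.53, against -0.01 over all genes. Without WT 2, which leaves a single WT library whose spread is assumed to be that of the deletion groups, 4 members were lower in HOMO (Uqcrc1, Cox4i2, Cox6a1 and Atp5d) and 6 in HET (Uqcrc1, Cox4i1, Cox4i2, Atp5d, Atp5g3 and Atp5sl), and none was higher. The shares of all genes called were then 3.76% lower and 10.4% higher in HOMO, and 4.84% lower and 10.9% higher in HET. The members' medians were -0.21 and -0.18. Without WT 1, 33 members were lower and 4 higher in each comparison, where 17.4% of all genes were lower and 20.5% higher in HOMO, and 17.5% lower and 19.9% higher in HET. The HOMO count of lower members also dropped to 9, 8 and 10 when HOMO 1, 2 or 3 was left out, where 7.24%, 7.52% and 6.55% of all genes were lower. The HET count dropped to 11 without HET 2 or HET 3 (7.38% and 7.76% of all genes). With each of the 8 libraries left out in turn, the same 4 members that stayed lower in HOMO without WT 2 kept their call throughout, as did the same 6 in HET, and no call of a higher member did. With each library other than WT 2 left out, 7 lower calls held in HOMO (those 4 with Uqcrq, Cox4i1 and Atp5e) and 10 in HET. The count of higher members was 0 in HOMO without HOMO 1 or HOMO 3, and 1 without HOMO 2, HET 2 or HET 3. In HET it was 1 when any deletion library was left out, where 11.6% to 14.9% of all genes were higher.

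**Figure D2:**
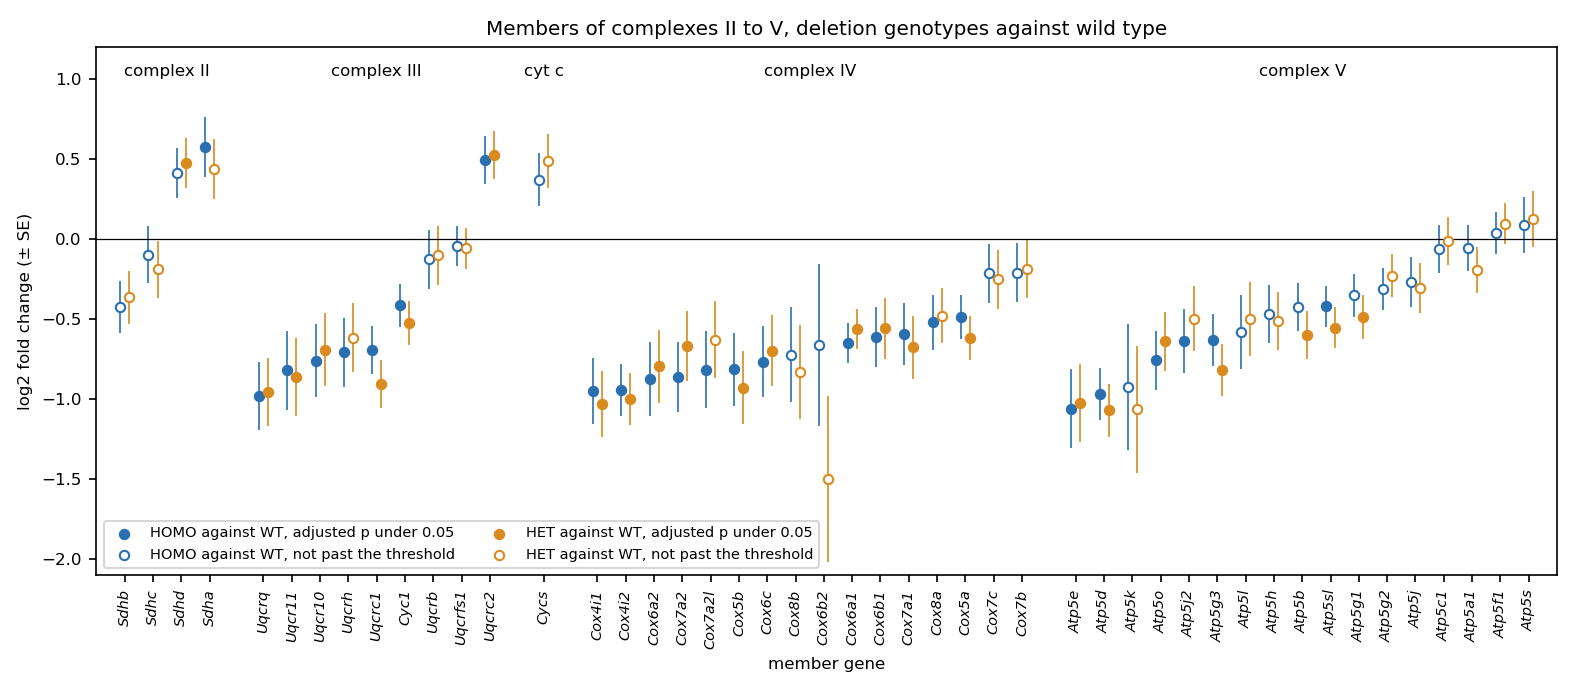
Log2 fold change with its standard error (vertical axis) for each tested member (horizontal axis, ordered within each complex by the HOMO value), HOMO against WT in blue and HET against WT in orange. Filled points passed an adjusted p of 0.05 by edgeR's quasi-likelihood test; complexes III, IV and V hold 24 filled blue points below 0, and Cox7b2, with 0 to 14 counts per library, is not drawn.

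In complex II, 1 subunit rose in each deletion genotype by edgeR's quasi-likelihood test, none fell, and the subunits did not share a direction. DESeq2 called 1 lower and 2 higher in HOMO (14.7% and 17.6% of all genes), and 0 lower and 2 higher in HET (15.1% and 17.7%). Sdha, the flavoprotein that oxidises succinate, was at 1221 and 912 CPM in WT 1 and 2, at 1294, 1721 and 1324 CPM in HET 1 to 3 and at 1710, 1394 and 1663 CPM in HOMO 1 to 3. All 6 deletion libraries lay above both WT libraries. Sdha rose in HOMO (log2 fold change 0.57, SE 0.19, adjusted p = 0.0430), and the HET difference of 0.44 (SE 0.19) did not pass (adjusted p = 0.104). Sdhd, a membrane anchor, was at 454 and 342 CPM in WT, at 598, 545 and 516 CPM in HET and at 518, 502 and 571 CPM in HOMO, again with no overlap. Sdhd rose in HET (0.47, SE 0.16, adjusted p = 0.0428), and the HOMO difference of 0.41 missed the threshold (adjusted p = 0.0700). The Sdhd call in HET was lost when any single library other than WT 1 was left out, and the Sdha call in HOMO without WT 2, HOMO 1, HOMO 3 or HET 3. Without WT 2, Sdha had 0.41 in HOMO (adjusted p = 0.194) and Sdhd 0.31 in HET (adjusted p = 0.182). Sdhb, the iron-sulfur subunit, had 1004 and 1386 CPM in WT, 874 to 1020 CPM in HET and 806 to 938 CPM in HOMO, and its log2 fold changes of -0.43 (adjusted p = 0.0768) and -0.37 (adjusted p = 0.123) in HOMO and HET did not pass. Sdhc, the other anchor, differed more between the WT libraries (713 and 462 CPM) than between any deletion libraries (490 to 572 CPM), with log2 fold changes of -0.10 in HOMO and -0.19 in HET that did not pass and turned to 0.25 and 0.16 without WT 1.

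In complex III, the core proteins Uqcrc1 and Uqcrc2, which form the matrix-facing base of the complex, moved in opposite directions. Uqcrc1 was at 2014 and 2316 CPM in WT, 1142, 1055 and 1269 CPM in HET and 1463, 1189 and 1360 CPM in HOMO. The lowest WT value was above the highest deletion value. Uqcrc1 fell by 0.69 (SE 0.15, adjusted p = 0.00738) in HOMO and by 0.91 (SE 0.15, adjusted p = 0.00202) in HET on the log2 scale. The calls held with each library left out, with values of -0.56 and -0.77 without WT 2. Uqcrc2 was at 863 and 746 CPM in WT, 1310, 1150 and 1014 CPM in HET and 1130, 1101 and 1163 CPM in HOMO, so all deletion libraries were above WT. It rose by 0.49 (SE 0.15, adjusted p = 0.0327) in HOMO and 0.53 (SE 0.15, adjusted p = 0.0249) in HET, and without WT 2 the values of 0.42 and 0.45 did not pass (adjusted p = 0.112 and 0.0856). The HOMO call was also lost without HOMO 1, 2 or 3 or HET 2, and the HET call without HET 2. In GENCODE vM21, 504 of the 2552 exon bases of Uqcrc2 also belong to Pdzd9, and reads there cannot be assigned without a stated strand setting.

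Of the 2 cytochromes, Cyc1 fell and Cycs did not pass the test. Cyc1, the cytochrome c1 subunit, was at 1179 and 1270 CPM in WT, 880, 772 and 900 CPM in HET and 983, 849 and 921 CPM in HOMO, and fell in both (-0.42, SE 0.14, adjusted p = 0.0431 in HOMO; -0.53, SE 0.14, adjusted p = 0.0162 in HET). The HOMO call was lost when any single library other than WT 1 was left out, and without WT 2 the values were -0.33 (adjusted p = 0.168) and -0.44 (adjusted p = 0.0659). Cycs, the soluble carrier between complexes III and IV, was at 734 and 578 CPM in WT, 1041, 767 and 951 CPM in HET and 816, 851 and 877 CPM in HOMO. All deletion libraries were above WT, but the log2 fold changes of 0.37 in HOMO (adjusted p = 0.123) and 0.49 in HET (adjusted p = 0.0509) did not pass. Uqcrfs1, the Rieske iron-sulfur protein, had log2 fold changes of -0.04 and -0.06.

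Of the 5 small subunits of complex III, 4 fell in HOMO and 3 in HET, and Uqcrb had -0.13 and -0.10, which did not pass. Uqcrq, which sits beside cytochrome b, was at 1033 and 1780 CPM in WT, 838, 656 and 682 CPM in HET and 673, 678 and 783 CPM in HOMO, with no overlap and WT 2 well above WT 1. Its log2 fold changes were -0.98 (SE 0.21, adjusted p = 0.00758) in HOMO and -0.96 (SE 0.21, adjusted p = 0.00833) in HET, and -0.51 and -0.48 without WT 2 (adjusted p = 0.0652 and 0.0740). Uqcr10 and Uqcr11 fell in both genotypes, by 0.76 and 0.82 in HOMO and by 0.69 and 0.86 in HET on the log2 scale. Their WT 1 values, 408 and 530 CPM, were close to those of HET 1, 414 and 515 CPM. Uqcrh, the hinge protein near cytochrome c1, fell in HOMO (-0.71, adjusted p = 0.0337) and had -0.62 in HET (adjusted p = 0.0564). Without WT 2 the values of these 3 genes lay between -0.26 and -0.12 and none passed.

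**Figure D3:**
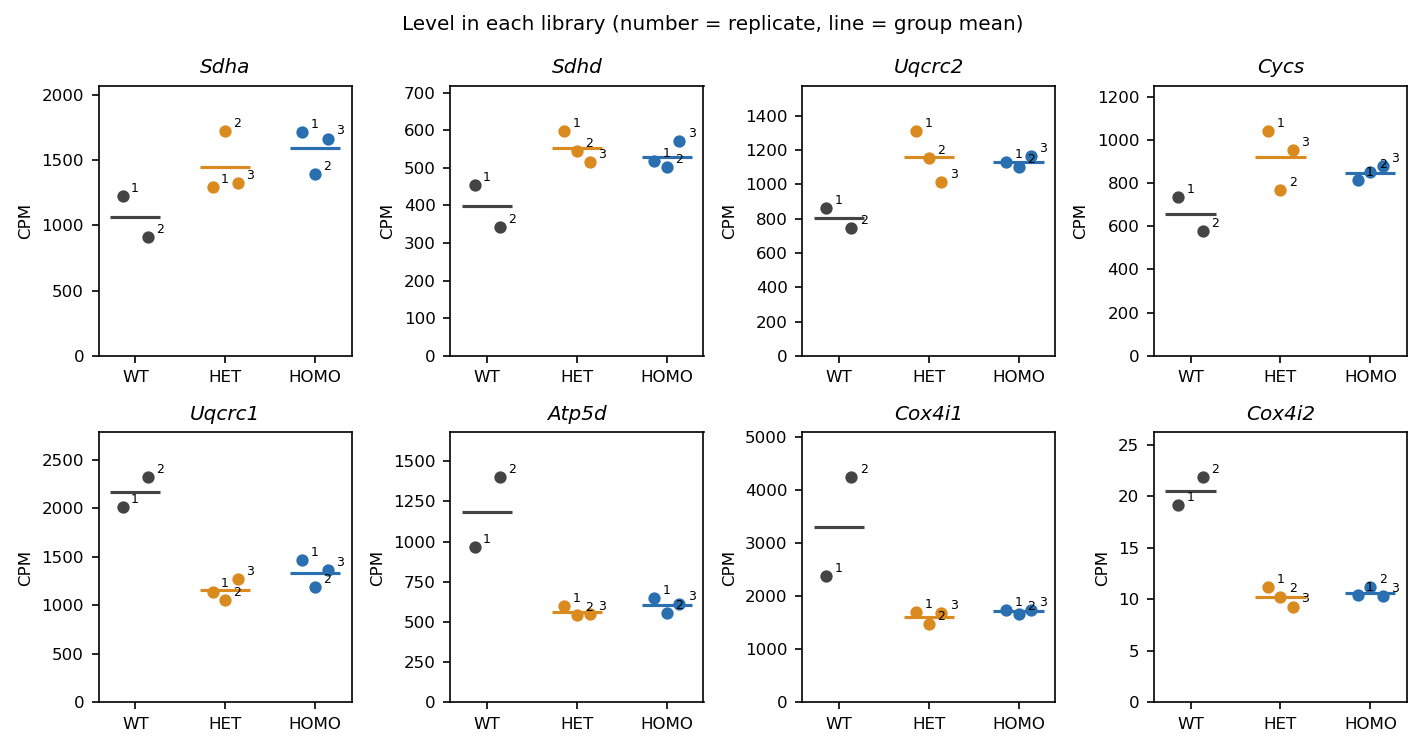
Level in CPM (vertical axes from 0) of 8 members in each library, with the replicate number beside each point and a line at the group mean. The upper row shows 4 genes whose deletion libraries all lie above both WT libraries (Sdha, Sdhd, Uqcrc2, Cycs); the lower row shows 4 whose deletion libraries all lie below (Uqcrc1, Atp5d, Cox4i1, Cox4i2).

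Complex IV had the largest count of lower members, 12 of 17 tested in HOMO and 10 of 17 in HET, and none was higher. Of all genes tested, 12.4% were lower in HOMO and 12.8% in HET. After the correction for gene properties described below, 0 of the 17 were lower in HOMO and 1 in HET (4.88% and 4.67% of all genes). Cox4i1, the common form of the largest nuclear subunit, was at 2387 and 4237 CPM in WT, 1696, 1472 and 1687 CPM in HET and 1742, 1665 and 1732 CPM in HOMO. The WT libraries were both above the deletion libraries and far apart from each other. Cox4i1 fell by 0.95 (SE 0.21, adjusted p = 0.00775) in HOMO and by 1.03 (SE 0.21, adjusted p = 0.00511) in HET on the log2 scale. Without WT 2 these became -0.45 (adjusted p = 0.0534) and -0.53 (adjusted p = 0.0252). Its paralog Cox4i2, known as the form of lung and of low oxygen, was present at 19.2 and 21.8 CPM in WT, 11.2, 10.3 and 9.30 CPM in HET and 10.4, 11.2 and 10.3 CPM in HOMO. The WT values were close to each other and well above all deletion values. Cox4i2 fell by 0.95 (SE 0.16, adjusted p = 0.00276) and by 1.0 (SE 0.16, adjusted p = 0.00199) on the log2 scale, and kept both calls without WT 2 (-0.82 and -0.87).

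Among the other subunits of complex IV, Cox5a and Cox5b, which flank the catalytic core on the matrix side, fell in both genotypes. Cox5a was at 1001 and 1245 CPM in WT, 697 to 757 CPM in HET and 752 to 829 CPM in HOMO, with log2 fold changes of -0.49 (adjusted p = 0.0242) in HOMO and -0.62 (adjusted p = 0.00832) in HET. Cox5b was at 927 and 1666 CPM in WT, 570 to 818 CPM in HET and 700 to 772 CPM in HOMO, with -0.81 (adjusted p = 0.0242) and -0.93 (adjusted p = 0.0134). Cox6c, a small membrane subunit, fell by 0.77 and 0.70 on the log2 scale (adjusted p = 0.0277 and 0.0400). All of these calls were lost without WT 2, where the values lay between -0.43 and -0.20. Cox7b and Cox7c had log2 fold changes of -0.25 to -0.19 in the 2 comparisons, none past the threshold. Cox7a2l, a paralog of subunit 7A known for joining complexes III and IV, fell in HOMO (-0.82, adjusted p = 0.0300) and had -0.63 in HET (adjusted p = 0.0761), against -0.29 and -0.11 without WT 2 (adjusted p = 0.382 and 0.769). The testis form Cox6b2 was at 0.718 to 3.88 CPM and Cox7b2 at 0 to 0.438 CPM.

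The heart-type genes dominated over their liver-type counterparts in all 8 libraries. In WT, the levels per kilobase of transcript were 4007 ± 1780 CPM for Cox6a2 against 271 ± 23.0 for Cox6a1, 3040 ± 841 for Cox7a1 against 901 ± 344 for Cox7a2, and 2439 ± 1320 for Cox8b against 392 ± 96.5 for Cox8a (SD, n = 2). By edgeR's quasi-likelihood test, genes of both types fell in the deletion hearts, except Cox8b in both genotypes and Cox8a in HET. After the correction for gene properties described below, none of these genes was called. Cox6a1, Cox7a1, Cox8a and Cox8b then had values above 0 in both genotypes, and Cox6a2 and Cox7a2 below 0. Cox6a2 was at 1869 and 3581 CPM in WT, 1746, 1575 and 1383 CPM in HET and 1459, 1430 and 1563 CPM in HOMO, and fell by 0.88 (adjusted p = 0.0180) and 0.80 (adjusted p = 0.0265) on the log2 scale. Its WT 1 value lay just above HET 1, and without WT 2 the values were -0.30 (adjusted p = 0.226) and -0.22 (adjusted p = 0.370). The liver-type Cox6a1 was at 146 and 164 CPM in WT, 115, 93.0 and 107 CPM in HET and 102, 101 and 93.6 CPM in HOMO, with a narrow spread in each group. Cox6a1 fell by 0.65 (SE 0.12, adjusted p = 0.00443) in HOMO and 0.56 (SE 0.12, adjusted p = 0.00810) in HET on the log2 scale, and without WT 2 had -0.53 (adjusted p = 0.0267) and -0.44 (adjusted p = 0.0509). Cox7a1 fell by 0.59 and 0.68, and its liver-type partner Cox7a2 by 0.86 and 0.67 (adjusted p = 0.0442, 0.0261, 0.0158 and 0.0452 in that order). Without WT 2 these 4 values were -0.25, -0.33, -0.38 and -0.18, and none passed (adjusted p = 0.414, 0.255, 0.192 and 0.546). Cox8a fell in HOMO (-0.52, adjusted p = 0.0448) and had -0.48 in HET (adjusted p = 0.0594), against -0.22 and -0.18 without WT 2 (adjusted p = 0.431 and 0.518). Cox8b, at 542 and 1214 CPM in WT, 609, 458 and 413 CPM in HET and 469, 525 and 601 CPM in HOMO, had WT 1 inside the deletion range, and its values of -0.72 and -0.83 did not pass (adjusted p = 0.0966 and 0.0615).

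The balance of heart-type to liver-type transcripts was measured within each library, so that library scaling does not enter. The log2 ratio of Cox6a2 to Cox6a1 was 3.68 and 4.45 in WT 1 and 2, 3.93, 4.08 and 3.69 in HET 1 to 3, and 3.84, 3.83 and 4.06 in HOMO 1 to 3. The 2 WT libraries were the lowest and the highest of all 8. Cox8b to Cox8a gave 1.60 and 2.26 in WT, 1.74, 1.71 and 1.54 in HET, and 1.71, 1.86 and 1.88 in HOMO, again with WT 2 as the highest. For Cox7a1 to Cox7a2 the ratio was 1.15 and 0.92 in WT, 1.17, 1.15 and 0.68 in HET, and 1.26, 1.31 and 1.27 in HOMO, so that the 3 HOMO libraries lay above the other 5. The HOMO mean of 1.28 ± 0.03 (SD, n = 3) exceeded WT by 0.24 and HET by 0.28, with exact two-sided permutation p = 0.2 and 0.1, which are the smallest p these group sizes allow, and 0.6 for both after adjustment over 9 tests. The other 7 differences ranged from -0.27 to 0.15, with overlapping groups and exact permutation p of 0.2 to 1. Without WT 2 the differences from WT changed sign for subunit 6A (0.23 in HOMO and 0.22 in HET) and for subunit 8 (0.21 and 0.06). No shift of the balance could pass the threshold at these group sizes.

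**Figure D4:**
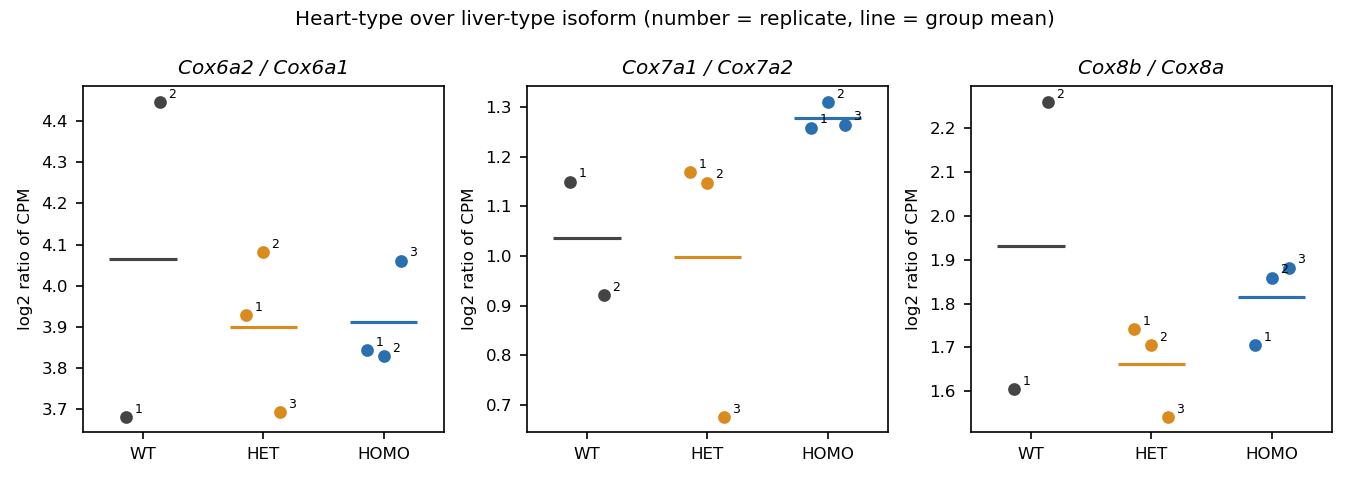
Log2 ratio of heart-type to liver-type CPM (vertical axes, not starting at 0) for subunits 6A, 7A and 8 in each library, with the replicate number beside each point and a line at the group mean. For subunit 7A the 3 HOMO libraries lie above the other 5, and for subunits 6A and 8 WT 2 lies above all other libraries.

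In complex V, the subunits of the central stalk and of the catalytic head each had members that fell and members with values near 0. Atp5d, the delta subunit of the central stalk, was at 968 and 1398 CPM in WT, 597, 543 and 549 CPM in HET and 647, 557 and 609 CPM in HOMO, with both WT libraries well above the rest. It fell by 0.97 (SE 0.16, adjusted p = 0.00259) in HOMO and by 1.07 (SE 0.16, adjusted p = 0.00142) in HET on the log2 scale, and kept both calls without WT 2 (-0.65 and -0.75). Atp5e, the epsilon subunit next to it, was at 690 and 1466 CPM in WT, 552, 497 and 538 CPM in HET and 492, 525 and 533 CPM in HOMO. WT 2 was over 2-fold above WT 1. Atp5e fell by 1.06 (adjusted p = 0.0107) and 1.03 (adjusted p = 0.0119), and had -0.39 and -0.35 without WT 2 (adjusted p = 0.0773 and 0.0966). The gamma subunit Atp5c1, by contrast, had log2 fold changes of -0.06 and -0.02. Atp5b, the catalytic beta subunit, was at 6594 and 8332 CPM in WT, 4903, 4994 and 4896 CPM in HET and 5971, 4994 and 5725 CPM in HOMO, and fell in HET (-0.60, SE 0.15, adjusted p = 0.0142) but not past the threshold in HOMO (-0.42, SE 0.15, adjusted p = 0.0579). Without WT 2 its values were -0.39 (adjusted p = 0.0893) and -0.21 (adjusted p = 0.361). The alpha subunit Atp5a1 had -0.06 and -0.19, with WT values of 5178 and 4983 CPM within the deletion range of 4154 to 5398 CPM.

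The 3 genes for the rotating c ring encode the same mature protein. Atp5g3, the most abundant per kilobase, was at 1738 and 2503 CPM in WT, 1247, 1142 and 1217 CPM in HET and 1382, 1276 and 1448 CPM in HOMO, and fell in both (-0.63, adjusted p = 0.0171 in HOMO; -0.82, adjusted p = 0.00514 in HET). Without WT 2 its HOMO value of -0.31 did not pass (adjusted p = 0.159) and its HET value of -0.50 did (adjusted p = 0.0303). Atp5g1 fell in HET (-0.49, adjusted p = 0.0233) and had -0.35 in HOMO (adjusted p = 0.0787), against -0.28 and -0.15 without WT 2 (adjusted p = 0.169 and 0.497). Atp5g2 had -0.31 and -0.23, which did not pass. Atp5o, the OSCP subunit that couples the head to the outer stalk, was at 1173 and 1828 CPM in WT, 897 to 1028 CPM in HET and 799 to 945 CPM in HOMO, and fell by 0.76 (adjusted p = 0.0126) and 0.64 (adjusted p = 0.0255) on the log2 scale. Without WT 2 the Atp5o values were -0.37 (adjusted p = 0.122) and -0.26 (adjusted p = 0.283). Of its 1972 exon bases, 346 and 356 are shared with D430001F17Rik and Gm15976. The outer-stalk and membrane subunits Atp5f1, Atp5h, Atp5j, Atp5j2, Atp5k and Atp5l had values from -1.07 to 0.10, and of these only Atp5j2 passed, in HOMO (-0.64, adjusted p = 0.0380; -0.23, adjusted p = 0.430 without WT 2). Atp5sl, now named Dmac2 and known as a complex I assembly factor, fell in both (-0.42, adjusted p = 0.0339; -0.55, adjusted p = 0.0103), with only the HET call holding without WT 2 (-0.36, adjusted p = 0.141; -0.49, adjusted p = 0.0468). Atp5s, a coupling factor, had 0.09 and 0.13.

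Per kilobase of transcript, the members spanned a wide range of levels in WT. The highest means were those of Cox4i1 (4329 ± 1710 CPM per kilobase, SD, n = 2), Cox6a2 (4007 ± 1780), Atp5b (3895 ± 641), Cox6c (3360 ± 1320), Cox7a1 (3040 ± 841) and Atp5g3 (2970 ± 757). These neighbours differ by less than their spread. Complex II lay below these leading genes: Sdhb 1046 ± 237, Sdha 368 ± 75.4, Sdhd 323 ± 64.3 and Sdhc 185 ± 56. Members of the other complexes lay in that range too, such as Cyc1 (806 ± 42.3), Uqcrc2 (424 ± 43.5), Cox7a2l (343 ± 140) and Atp5f1 (756 ± 34.8). Cycs stood at 210 ± 35.3, Cox4i2 at 27.96 ± 2.58 and Cox6b2 at 4.54 ± 2.97. In HOMO the leading gene by mean was Atp5b (2903 ± 265, n = 3), above Cox4i1 (2239 ± 54.8). For Uqcrq and Atp5g1 the level per kilobase depends on the transcript chosen, since annotated transcripts of equal rank measure 1521 or 405 bases and 4715 or 596 bases.

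The members are short genes, and the fold changes of all genes followed transcript length and GC content. The median transcript length was 787 bases over the 48 tested members, against 3001 bases over 13993 genes with known properties, and 29 members but 5.6% of all genes were shorter than 1000 bases. In HOMO against WT, the median log2 fold change was -0.66 for members under 1000 bases and -0.10 for longer members, and over all genes it was -0.62 and 0.00 for the same classes. In HET the values were -0.67 and -0.19 for members and -0.55 and 0.00 for all genes. Across all genes, Spearman's rho of the HOMO fold change was 0.42 with length and -0.44 with GC content, and across the 48 members it was 0.48 and -0.60. Genes are not independent replicates, and all fold changes share the 2 WT libraries. Length was also related to the difference between the WT libraries, with rho = -0.72 over members and -0.23 over all genes for log2 WT 2 over WT 1. The longest members were Sdha, Sdhc, Uqcrc2 and Cycs, at 1896 to 3171 bases, with Atp5g1 (4715), Atp5a1 (2471), Atp5sl (2387) and Atp5b (1916). Sdha, Uqcrc2 and Cycs had log2 fold changes above 0 in both comparisons, and the others below 0. Sdhd, also above 0 in both, has 1231 bases.

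When the trends with GC content, 3' UTR length and transcript length were removed from each library, the members' medians became -0.01 in HOMO and -0.06 in HET. In HOMO, 2 members were then lower (Uqcrq and Atp5g1) and 4 higher (Sdha, Sdhd, Uqcrc2 and Atp5j), where 4.88% of all genes were lower and 9.88% higher. In HET, 3 were lower (Uqcrq, Cox5b and Atp5g1) and 3 higher (Sdhd, Uqcrc2 and Atp5g2), where 4.67% were lower and 9.15% higher. Sdhd had 0.65 in HOMO (adjusted p = 0.0192) and 0.70 in HET (adjusted p = 0.0152), Sdha 0.56 in HOMO (adjusted p = 0.0425), and Uqcrc2 0.46 and 0.43 (adjusted p = 0.0334 and 0.0422). Uqcrc1 had -0.17 and -0.38 (adjusted p = 0.421 and 0.0773), Cox4i2 -0.24 and -0.30, Cox4i1 -0.17 and -0.27, and Atp5d -0.23 and -0.32, none of which passed. For Sdhb, Cyc1, Uqcr10, Uqcr11, Cox6a1, Cox7a1, Cox8a and Cox8b the HOMO values turned from below to above 0, at 0.05 (Cyc1) to 0.33 (Cox8a), and the HET values of the same genes other than Cyc1 did so too, with none past the threshold. With the shorter of equally ranked transcripts, 47 members were tested, since the shorter Atp5g2 transcript has no annotated 3' UTR. Uqcrq then had -0.03 and -0.02 (adjusted p = 0.910 and 0.938), and Atp5g1 turned from -0.68 and -0.82 to 0.40 and 0.25 in HOMO and HET (adjusted p = 0.0528 and 0.208). The same 4 members were higher in HOMO and none was lower, where 5.1% of all genes were lower and 10.3% higher. In HET 2 were lower (Cox5b and Atp5g3) and 1 higher (Sdhd), where 4.84% were lower and 9.57% higher. With the correction and WT 2 left out together, no member was called in HOMO, where 1.46% of all genes were lower and 4.26% higher. In HET 2 were then lower (Sdhc and Atp5g1) and none higher, where 1.41% were lower and 3.84% higher. The correction removes any effect of genotype that itself follows these properties, and the members are short as a class, so a fall of the class and a trend with length cannot be told apart.

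**Figure D5:**
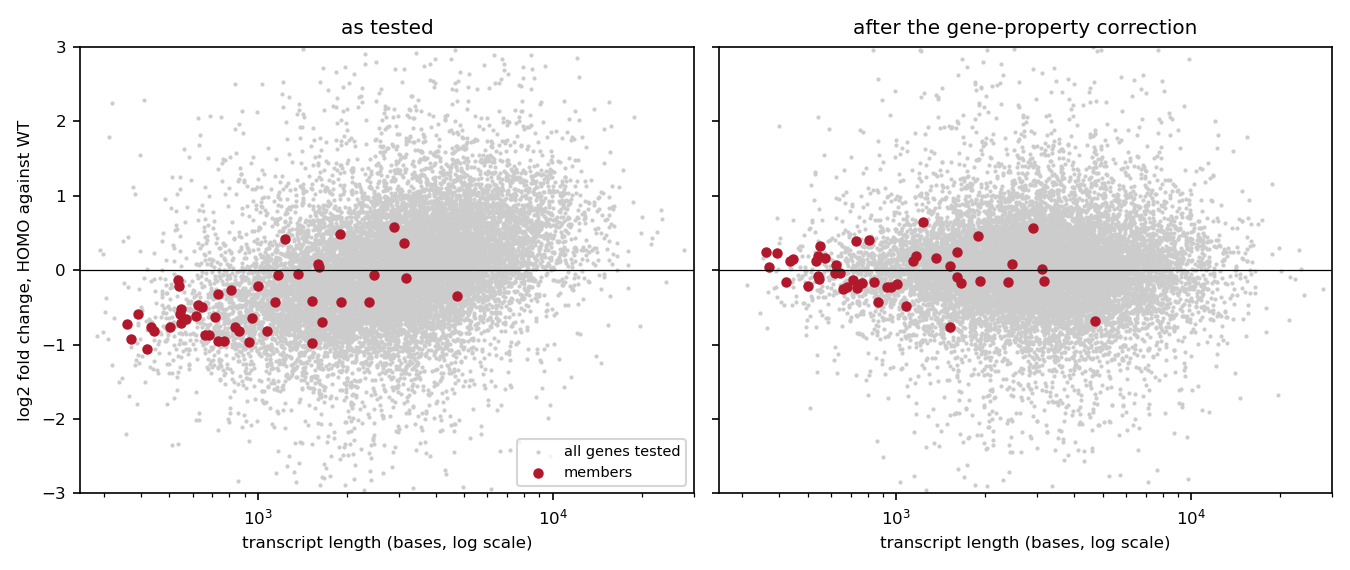
Log2 fold change of HOMO against WT (vertical axis) against transcript length in bases (horizontal log axis) for all genes tested (grey) and members (red), as tested on the left and after the correction for gene properties on the right. Members under 1000 bases lie mostly below 0 on the left and around 0 on the right; genes beyond 3 in either direction, Cox6b2 and Cox7b2 are not drawn.

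HOMO and HET hearts did not differ in any member by edgeR's quasi-likelihood test. Of all 15075 genes, 0 (0% lower, 0% higher) passed, 411 had an unadjusted p under 0.05, and DESeq2 called 2 lower (0.0133%) and 1 higher (0.00663%), none of them a member. After the correction for gene properties 1 gene was lower (0.00715%), again no member. The members' median was -0.02 and their range -0.31 to 0.84. The 4 members with the smallest p were Cox6b2 (log2 fold change 0.84, SE 0.48), Uqcrc1 (0.21, SE 0.14), Atp5b (0.17) and Atp5g3 (0.19), each with an adjusted p of 1.0. For Atp5g1 and Atp5g3 all HOMO libraries lay above all HET libraries, a pattern that 6.19% of genes showed, and for no member did all lie below (5.15% of genes). For Uqcrc1 and Atp5b, whose HET means were below their HOMO means, the ranges of the 2 genotypes met or overlapped.

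The other genes of the pathway were counted from lists that were likewise chosen with earlier results known. Complex I, the NADH dehydrogenase, also had many lower genes. Of 35 tested subunits, 18 were lower and 1 higher in HOMO (median -0.61), and 19 lower and 1 higher in HET (median -0.63). The shares of all genes called were 12.4% lower and 15.3% higher in HOMO, and 12.8% and 15.2% in HET. Ndufa11 fell from 406 and 590 CPM in WT to 265, 256 and 260 CPM in HOMO, a log2 fold change of -0.94 (adjusted p = 0.00271), with 236 to 270 CPM in HET. Ndufs7 (-0.82) and Ndufa8 (-0.80) had the next smallest p. Without WT 2 these 3 values were -0.61, -0.56 and -0.49 and all passed (adjusted p = 0.0124, 0.0226 and 0.0330), and after the correction they were -0.12, -0.05 and -0.18 and none passed (adjusted p = 0.586, 0.816 and 0.295). After the correction 3 subunits were lower and 1 higher in HOMO (median -0.10), and 5 lower and 1 higher in HET (median -0.17). The shares of all genes were then 4.88% lower and 9.88% higher in HOMO, and 4.67% and 9.15% in HET. A list of 7 further subunits and partners outside the naming rule had 0 lower and 1 higher in each genotype (median -0.23 in HOMO and -0.36 in HET). After the correction it again had 0 lower and 1 higher in each (median 0.15 and 0.10). The shares of all genes are those given for complex I. The assembly factors of complexes II to V, which help build the complexes without staying in them, were mixed. Of 37 tested, 6 were lower and 9 higher in HOMO (median 0.11), and 6 lower and 10 higher in HET (median 0.11). All genes without the correction, as given above, had 12.4% lower and 15.3% higher in HOMO, and 12.8% and 15.2% in HET. Taco1, a translational activator of the mitochondrial Cox1, was at 20.3 and 10.8 CPM in WT and 54.5 to 62.9 CPM in HOMO (log2 fold change 1.92, adjusted p = 0.000551). Atpaf1, which assembles the ATP synthase head, was at 21.5 and 14.4 CPM in WT and 47.8 to 64.2 CPM in HOMO (1.69, adjusted p = 0.000462). Both rises held after the correction (2.33 and 1.78) and without WT 2 (1.57 and 1.46).

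Of 10 regulators of mitochondrial biogenesis, 6 were higher and none lower in HOMO (median 0.73) and in HET (median 0.81). After the correction 4 were higher in each (median 0.35 in both). The shares of all genes called higher were 15.3% in HOMO and 15.2% in HET, and 9.88% and 9.15% after the correction. Esrrg, an ERR nuclear receptor of heart muscle, was at 26.9 and 26.6 CPM in WT, 61.1, 77.6 and 72.6 CPM in HET and 67.8, 65.4 and 76.0 CPM in HOMO. The groups did not overlap and the WT libraries were nearly equal. Esrrg rose by 1.38 (SE 0.14, adjusted p = 0.000237) in HOMO and 1.40 (SE 0.14, adjusted p = 0.000200) in HET, by 0.86 and 0.85 after the correction, and by 1.41 and 1.42 without WT 2.

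Markers of other cell types were counted in the same way. Of all genes tested, 12.4% were lower and 15.3% higher in HOMO, and 12.8% and 15.2% in HET. The lists are short, so a small count of calls does not set a cell type apart from all genes. Of 5 tested atrial markers 4 were lower in HOMO and in HET, with summed levels of 327 to 584 CPM in WT, 98.8 to 421 in HET and 107 to 366 in HOMO. Of 4 tested adipocyte markers 2 were lower in each, with 971 to 1360 CPM in WT, 659 to 1110 in HET and 638 to 814 in HOMO. Of 8 endothelial markers 4 were lower in HOMO and 3 in HET, with 1350 to 1370, 896 to 1030 and 880 to 1120 CPM. Of 8 smooth muscle and pericyte markers 3 were lower in HOMO and 5 in HET, with 1330 to 1640 CPM in WT, 1160 to 1480 in HET and 1150 to 1310 in HOMO. Of 8 fibroblast markers none passed, with 1440 to 2490, 1630 to 1970 and 1400 to 1910 CPM. Of 8 macrophage markers 2 were lower and 2 higher in HOMO, and 1 lower and 3 higher in HET, with 466 to 548, 491 to 723 and 491 to 512 CPM. Of 5 tested skeletal muscle markers 1 was lower in HOMO and none passed in HET, with 1960 to 2140, 1280 to 2220 and 1530 to 1630 CPM, and Myh4 was at 0 in all libraries. The globin genes Hba-a1, Hba-a2, Hbb-bs and Hbb-bt were at 0 in all libraries. How multi-mapped reads were treated is not given, so these 0 counts do not show that blood was absent. The remaining erythroid marker, Alas2, was at 23.8 to 41.8 CPM in WT, 29.6 to 53.8 in HET and 12.2 to 53.0 in HOMO. Its log2 fold changes of 0.21 in HOMO and 0.43 in HET did not pass. Median log2 fold changes in HOMO and HET were -3.19 and -3.01 for atrial markers, and -2.62 and -2.92 for adipocyte markers. They were -1.30 and -0.96 for skeletal muscle, -0.63 and -0.99 for smooth muscle and pericyte, and -0.52 and -0.51 for endothelial markers. Fibroblast markers had -0.31 and -0.11, and macrophage markers 0.10 and 0.28. The median over all genes was -0.03 in each comparison. After the correction, 4 atrial and 1 endothelial markers were lower in each genotype. Adipocyte markers then had 2 lower in HOMO and 1 in HET, and smooth muscle and pericyte markers 3 and 2. The medians were then -2.90 and -2.91 for atrial, -2.24 and -2.43 for adipocyte, and 0.09 and 0.46 for macrophage markers. No macrophage marker was lower and 1 was higher in each, and no skeletal muscle or fibroblast marker passed. The shares of all genes were then 4.88% lower and 9.88% higher in HOMO, and 4.67% and 9.15% in HET. The part of these markers' cells in the differences of Cox, Uqcr and Atp5 transcripts was not tested.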

How the data were processed

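The authors deposited raw counts per gene symbol, 1 column per library and not normalized. The submitters' processing notes name Trimmomatic 0.36, HISAT2, Subread, featureCounts, DESeq2 and the mm10 build. Per the labels' protocols, libraries were made with the TruSeq kit and sequenced on an Illumina HiSeq. How multi-mapped reads, strand and gene models were treated is not given in the sources used here, so counts of members with near-identical copies, and of the 13 members that share exon bases with another gene, are uncertain.

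Counts were analysed in R 4.3.3 with edgeR 4.0.16: filterByExpr on genotype, TMM scaling, and 1 robust quasi-likelihood fit of all 8 libraries, since WT has only 2. Tests were two-sided, with Benjamini-Hochberg adjustment over the 15075 genes tested and 0.05 as the threshold. Counts were converted to CPM with the TMM factors, and log2 fold changes carry the fit's standard error (SE). Gene positions and transcript properties came from GENCODE vM21, where 96.9% of symbols were found directly and 375 more through RefSeq synonyms. The gene-property correction fitted splines (4 degrees of freedom each) of GC content, 3' UTR length and transcript length in each library and removed them as an offset, for 13993 genes. Isoform ratios were compared by exact permutation tests over libraries. Tested on simulated data, the fit recovered 70%, 64% and 71% of genes changed 2-fold (HOMO against WT, HET against WT, HOMO against HET), with 12, 9 and 10 false calls among 15075 genes. The simulated libraries had no trend with gene properties and no library standing apart.

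The named members are the Sdh genes, Cyc1, Cycs, the heart-type and liver-type Cox genes, the 4 smallest p and 2 highest levels per kilobase in each of complexes III, IV (other members) and V, and every member that rose. Other members were named as values, and Atp5g1 was followed through the alternatives after its values were seen. The members, lists, tests and alternatives were chosen with earlier results of these data known. Alternatives were other scalings, no filter, DESeq2 1.42.0, limma-voom (limma 3.58.1), a non-robust fit, a fit of the compared groups alone, the replicate block, each library left out, and the correction, alone or combined. The correction with the shortest transcripts was added after its first values were seen.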

Additional observations from a re-analysis of the deposited data

How the results depend on the processing

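Counts of called members and their medians against WT were within 1.5 times of the values reported under DESeq2 size factors, scaling without the members, no filter, limma-voom and a fit that is not robust. With total counts 1 member was higher in each comparison, and with DESeq2 4 were higher in HET. With only the groups compared, 11 were lower and 1 higher in HOMO (8.99% and 13.2% of all genes), and 11 lower and 0 higher in HET (7.18% and 10.4%). Libraries share replicate numbers, but the labels do not say that a number pairs animals, and deviations of same-numbered libraries correlated at only -0.02 to 0.18, with HET 3 and HOMO 3 below 0. With the replicate block, 11 were lower and 1 higher in HOMO (8.98% and 13.1% of all genes), and 13 lower and 1 higher in HET (9.28% and 13.1%), and the HET difference in the subunit 7A ratio became 0.12.

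With the gene-property correction, 2 were lower and 4 higher in HOMO (median -0.00997) and 3 lower in HET (median -0.0611). With it and WT 2 left out, 0 were lower and 0 higher in HOMO (median -0.00565), and 2 lower and 0 higher in HET (median -0.0293). With it and the replicate block, 1 was lower and 2 higher in HOMO (median -0.00174, where 3.66% and 8.03% of all genes were called), and 1 lower and 1 higher in HET (median -0.0645, 3.13% and 7.14%). With the shortest transcripts, 0 were lower and 4 higher in HOMO (median -0.00432), and 2 lower and 1 higher in HET (median -0.0667). The cause of these changes was not tested. Leaving out each library gave 4 to 33 lower and 0 to 4 higher in HOMO (median -0.75 to -0.21), and 6 to 33 lower and 0 to 4 higher in HET (median -0.78 to -0.18).

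Signs also turned for single genes. Under the correction alone, the HOMO values became 0.124 (Sdhb), 0.0549 (Cyc1), 0.126 (Uqcr10), 0.157 (Uqcr11), 0.159 (Cox6a1), 0.230 (Cox7a1), 0.328 (Cox8a) and 0.241 (Cox8b). The HET values became 0.165 (Sdhb), 0.173 (Uqcr10), 0.106 (Uqcr11), 0.237 (Cox6a1), 0.111 (Cox7a1), 0.364 (Cox8a) and 0.103 (Cox8b). With WT 2 also left out, the HOMO values were 0.195 (Sdhb), 0.012 (Cyc1), 0.0882 (Uqcr10), 0.190 (Uqcr11), -0.139 (Cycs), 0.0211 (Cox7a1), 0.2 (Cox8a) and 0.278 (Cox8b). The HET values were 0.237 (Sdhb), 0.136 (Uqcr10), 0.140 (Uqcr11), -0.0771 (Cycs), 0.0392 (Cox6a2), 0.0284 (Cox7a2), 0.237 (Cox8a), 0.141 (Cox8b) and 0.0149 (Atp5o). With the correction and the replicate block, the HOMO values were 0.112 (Sdhb), 0.0269 (Cyc1), 0.126 (Uqcr10), 0.207 (Uqcr11), 0.209 (Cox6a1), 0.299 (Cox7a1), 0.356 (Cox8a) and 0.288 (Cox8b). The HET values were 0.155 (Sdhb), 0.169 (Uqcr10), 0.148 (Uqcr11), 0.289 (Cox6a1), 0.166 (Cox7a1), 0.386 (Cox8a) and 0.138 (Cox8b). With the shortest transcripts, the HOMO values were 0.0867 (Sdhb), 0.0405 (Cyc1), 0.138 (Uqcr10), 0.171 (Uqcr11), -0.00432 (Cycs), 0.168 (Cox6a1), 0.224 (Cox7a1), 0.339 (Cox8a), 0.228 (Cox8b) and 0.402 (Atp5g1). The HET values were 0.129 (Sdhb), 0.184 (Uqcr10), 0.119 (Uqcr11), 0.245 (Cox6a1), 0.104 (Cox7a1), 0.374 (Cox8a), 0.0911 (Cox8b) and 0.249 (Atp5g1).

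With each library left out, Sdhc ranged from -0.348 to 0.248 in HOMO and from -0.44 to 0.157 in HET, and Cox8b from -1.19 to 0.00177 in HOMO, with the lowest and highest values given by leaving out a WT library. Among the isoform ratios, subunit 6A ranged from -0.54 to 0.23 in HOMO, from -0.55 to 0.22 in HET, and for HOMO against HET from -0.0939 to 0.10, below 0 without HET 3 (-0.0939) or HOMO 3 (-0.0647). Subunit 7A in HET ranged from -0.15 to 0.12 and was 0.0766 without WT 1 and 0.20 with the correction. Subunit 8 ranged from -0.44 to 0.21 in HOMO and from -0.60 to 0.0594 in HET. The 2 WT libraries limit every comparison with WT: a library left out there leaves 1 WT library, whose spread is taken from the deletion groups.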
